A study of Mus musculus with 20 samples.

Results

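Cd38 and 6 further genes of NAD metabolism (Bst1, Nampt, Nmrk1, Nmnat1, Naprt and Nadk) were followed in mouse bone marrow-derived macrophages, 7 of the 46318 genes in the files. They were chosen by name, as genes that consume or make NAD, and Cd38 was selected on its large rise with GW3965, so its GW3965 values are given as a description. The macrophages were grown from marrow of C57BL/6 female mice with a recombinant growth factor and treated for 24 h in 4 groups. Each group had 5 biological replicates, which gave 20 libraries. The controls received the solvent DMSO. A second group received DSHN at 50 µM, an agonist of the nuclear receptor NR0B2. Another group received GW3965 at 1 µM, an agonist of the oxysterol receptor LXR, and the combination group received both compounds at these doses. The labels name no genotype or transgene, give no age, and do not say whether the replicates of a treatment came from separate animals. P-values therefore measure the spread between these cultures.

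NAD is a cofactor of redox reactions and also a substrate that several enzymes break down. CD38, a surface ectoenzyme, cleaves NAD to nicotinamide and ADP-ribose and makes a little of the calcium messenger cyclic ADP-ribose, and it is known as a main NAD consumer of activated macrophages. Most NAD in such cells is rebuilt from nicotinamide by the salvage pathway, whose first enzyme is NAMPT.

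Library totals ran from 16855029 to 23796561 counts, 13307 genes passed the filter on low counts, and all 7 NAD genes were among them. All 9 macrophage markers were detected in every group, at a summed level of 16300 to 19500 CPM, the read count per library size on a common scale. Cd38 is also a marker of B and plasma cells. Of 8 other markers of those cells 2 passed the filter, their sum of 54.1 to 76.4 CPM came mostly from Sdc1, and Pax5 had no count in any library. Markers of stromal and endothelial cells, mostly collagen genes, summed to 1770 to 2150 CPM in the combination and to 2110 to 3060 CPM elsewhere, and their part in the results was not tested. In such bulk RNA, fewer cells of a type and less RNA per cell cannot be told apart.

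Cd38 and Nampt encode the NAD-cleaving ectoenzyme and the first salvage enzyme. Of the 7 genes followed, these had a higher CPM in every GW3965 library than in every DMSO library. Cd38 was chosen for its rise, and the share of all tested genes without such overlap is not given here. The promoters of Cd38 and Nampt are shown because these 2 genes moved in the same direction by very different amounts. The sequences are the 250 bases before the annotated start of transcription, from RefSeq (GRCm38.p6), which held 5 of the 7 genes. Capitals mark AGGTCA, the nuclear receptor half-site, and GGGCGG, the GC box, on either strand.
Cd38 (chr5:43868559-43868808, plus strand): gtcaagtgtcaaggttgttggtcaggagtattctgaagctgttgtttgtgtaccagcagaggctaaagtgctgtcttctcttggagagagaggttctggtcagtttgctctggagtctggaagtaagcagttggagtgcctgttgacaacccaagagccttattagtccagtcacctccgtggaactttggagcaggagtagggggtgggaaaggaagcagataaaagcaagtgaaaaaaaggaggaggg
Nampt (chr12:32820085-32820334, plus strand): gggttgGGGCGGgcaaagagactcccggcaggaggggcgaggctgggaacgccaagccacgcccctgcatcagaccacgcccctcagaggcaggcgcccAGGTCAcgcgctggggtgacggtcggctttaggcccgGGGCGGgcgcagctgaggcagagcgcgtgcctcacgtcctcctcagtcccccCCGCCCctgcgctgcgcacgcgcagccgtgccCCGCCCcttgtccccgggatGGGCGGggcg
Searched on both strands, the Cd38 window held neither motif, no TATAAA and no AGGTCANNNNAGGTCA, a direct repeat spaced by 4 bases that is known as the LXR arrangement. Among 32851 promoters of this length, 14% held AGGTCA, 32.7% held GGGCGG, 12.4% held TATAAA and 0.0152% (5 promoters) held the spaced repeat, each of which also holds AGGTCA. The Nampt window was richer in G and C, at 75.6% against 48.8% in Cd38 and a median of 52.4% over all promoters, and it held AGGTCA and several GC boxes. The Nmrk1 window likewise held none of these motifs. Only exact letters within 250 bases were searched. The spaced repeat was so rare that its absence from the Cd38 window says little about LXR sites. These matches describe letters, and binding was not measured.

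Cd38 (GeneID 12494, chr5:44026151-44069716 in GRCm39, plus strand, 3013 exon bases) was at 4.91, 4.45, 5.22, 3.60 and 3.87 CPM in the 5 DMSO libraries, from 69 to 114 reads. With DSHN it was at 5.06, 5.84, 6.41, 6.10 and 5.84 CPM. With GW3965 it stood at 60.7, 66.2, 60.1, 59.0 and 54.8 CPM, from 1080 to 1339 reads. Every GW3965 library was thus far above every DMSO and DSHN library, while the DMSO and DSHN libraries overlapped. The combination gave 28.8, 35.1, 35.6, 35.7 and 37.3 CPM, between the groups, with no library overlapping those of GW3965 or of DSHN.

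The mean level of Cd38 was 4.41 ± 0.68 CPM (SD, n = 5) in DMSO and 60.1 ± 4.06 CPM in GW3965, a 13.5-fold difference (log2 3.76, SE 0.08). With both compounds it was 34.5 ± 3.3 CPM, 7.74-fold the DMSO level (log2 2.95, SE 0.09). DSHN alone gave 5.85 ± 0.5 CPM, a log2 difference of 0.39 (SE 0.11) from DMSO. These comparisons share libraries with the choice of Cd38 and carry no p-value.

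In the 10 libraries that held DSHN, Cd38 was 5.9-fold higher with GW3965 than without it (log2 2.56, SE 0.08), and 5 of 5 combination libraries were above all DSHN libraries. The levels of all 4 groups were in view when Cd38 was chosen, so this value too is a description with no p-value. After a correction for gene length, described with Bst1, it was 2.53. In this comparison 58.1% of all tested genes were called at an adjusted p under 0.05, the threshold used throughout, and 4 of the 6 genes beside Cd38 were called.

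Beside GW3965 alone, the combination had less Cd38, at 0.572 times the level (log2 -0.81, SE 0.07). In absolute terms GW3965 added 55.7 CPM of Cd38 (SE 1.84) without DSHN and 28.6 CPM (SE 1.49) with it, or 51.4% of the gain. The interaction, which subtracts the DSHN effect measured without GW3965 from the one measured with it, was -1.20 on the log2 scale (SE 0.13). Neither log2 value carries a p-value. The DSHN libraries were all above the DMSO mean of Cd38, and the combination libraries were all below the GW3965 mean.

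**Figure D1:**
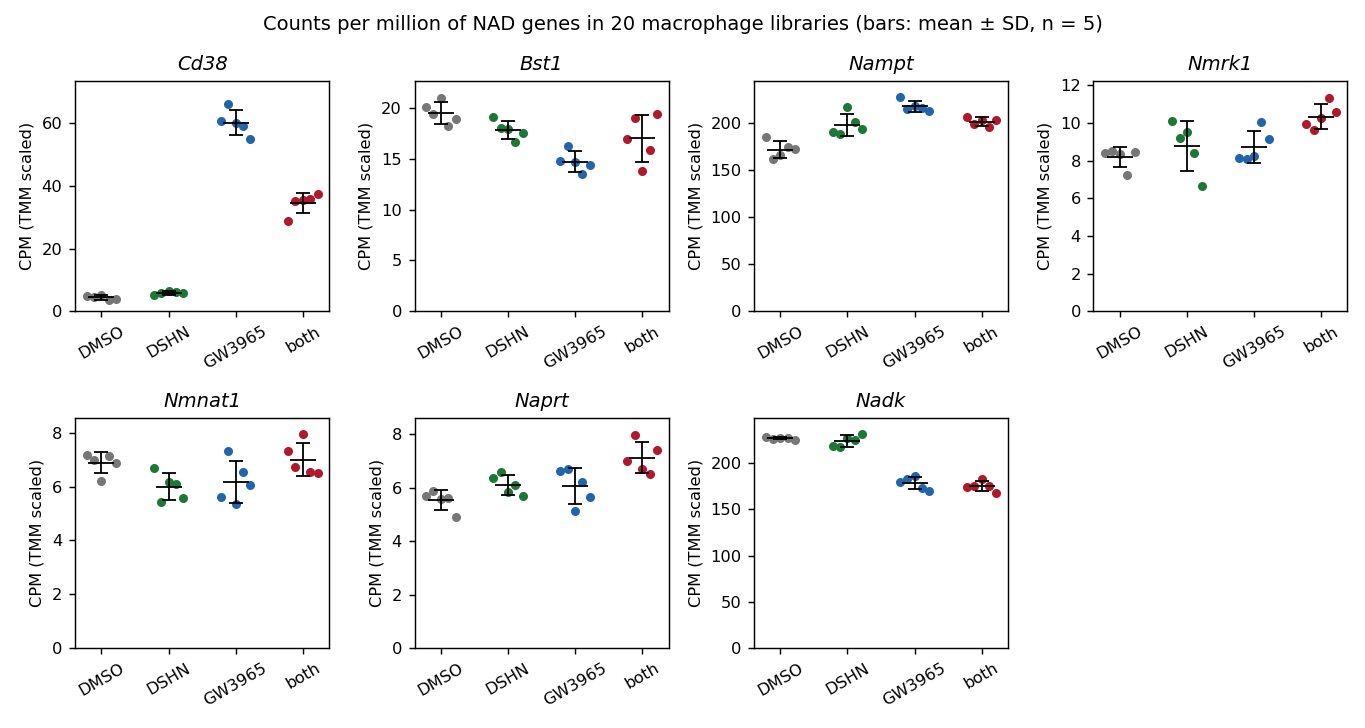
Each panel plots the CPM (scaled by TMM) of 1 NAD gene, with 1 point per library and bars for the mean ± SD of 5 libraries under DMSO, DSHN, GW3965 and both compounds. Cd38 is near 5 CPM without GW3965, near 60 with it and near 34 with both, while the means of Bst1 run from 14.7 to 19.5 CPM and those of Nadk from 175 to 227 CPM.

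Bst1 (GeneID 12182, chr5:43976235-44000810, plus strand, 2336 exon bases) encodes BST1 (CD157), the paralog of CD38 with weaker NAD-cleaving activity. It was at 20.1, 19.4, 21, 18.2 and 18.97 CPM in DMSO and at 14.8, 16.3, 14.7, 13.5 and 14.4 CPM with GW3965. With DSHN it was at 19.1, 18.0, 17.9, 16.7 and 17.5 CPM, and with both compounds at 16.9, 18.98, 13.8, 15.9 and 19.5 CPM. All GW3965 libraries lay below all DMSO libraries, and the combination spread over both ranges. Bst1 fell by 0.41 on the log2 scale with GW3965 (SE 0.07, edgeR adjusted p = 4.09e-05), the direction opposite to that of its neighbour Cd38. The fall with both compounds against DMSO was smaller (log2 -0.20, SE 0.07, adjusted p = 0.016) and was lost without combination replicate 3 (adjusted p = 0.077). After the length correction it was larger, at -0.31 (adjusted p = 0.000594), and Bst1 was then also called lower in the combination than in DSHN (-0.18, adjusted p = 0.0476), where the value without correction was -0.07 (adjusted p = 0.408). DSHN alone gave no call (log2 -0.13, 95% interval -0.28 to 0.02, adjusted p = 0.179).

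Against GW3965 alone, Bst1 rose by a log2 of 0.21 in the combination (SE 0.08, adjusted p = 0.0193), although the libraries overlapped. That call was lost without combination replicate 2 or 5 (adjusted p up to 0.0632) and after the length correction (log2 0.10, adjusted p = 0.276). The length correction was run because, in the combination libraries, longer genes had lower counts than elsewhere. The slope of log2 CPM, taken relative to the mean of all libraries, on log2 exon length was -0.124 to -0.0943 there and 0.00566 to 0.063 in the 15 other libraries. In the combination against GW3965, 57.8% of all tested genes were called without this correction and 47.3% with it.

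The ratio of Cd38 to Bst1, each per kilobase of exon, summarised the pair. It was 0.174 ± 0.0179 (SD, n = 5) in DMSO, 0.255 ± 0.031 in DSHN, 3.17 ± 0.153 in GW3965 and 1.6 ± 0.274 in the combination. Bst1 was the more abundant transcript per length in all 10 libraries without GW3965 and Cd38 in all 10 libraries with it.

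No other tested gene within 500 kb of Cd38 was called higher with GW3965 against DMSO. In that comparison 46.5% of all tested genes were called, either higher or lower. Fbxl5, which ends 86622 bases before Cd38, differed by a log2 of 0.07 with GW3965 against DMSO (adjusted p = 0.124). Cc2d2a, 127834 bases before, differed by -0.07 (adjusted p = 0.505), and Tapt1, 262780 bases after, by 0.00 (adjusted p = 0.959). These 3 genes and Bst1 were the tested ones among 19 annotated in the window. Cc2d2a fell by 0.43 on the log2 scale in the combination against DSHN (SE 0.08, adjusted p = 4.74e-05), where Cd38 was higher, and by 0.20 after the length correction (adjusted p = 0.022). Fbxl5 rose there by a log2 of 0.11 (adjusted p = 0.0235), or 0.26 after that correction (adjusted p = 1.09e-05).

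**Figure D2:**
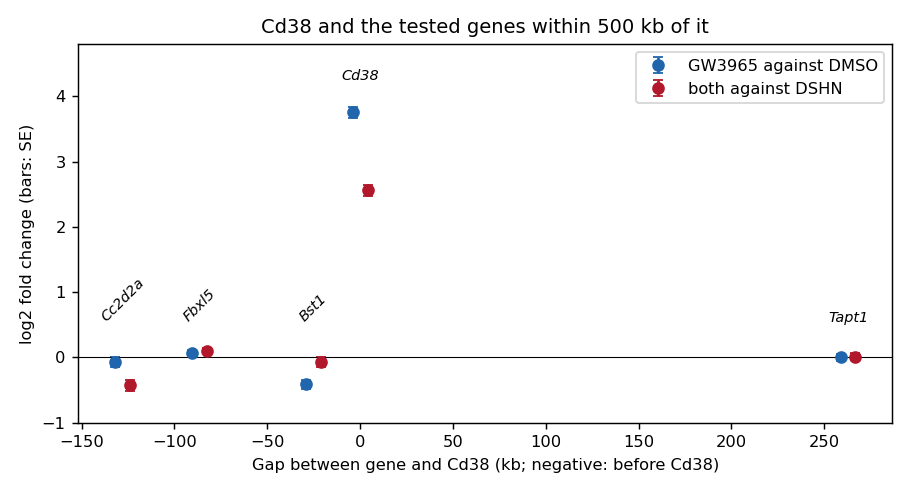
The log2 fold change (bars: SE) of Cd38 and the 4 tested genes within 500 kb is plotted by the gap to Cd38 in kb, for GW3965 against DMSO (blue) and both compounds against DSHN (red). Cd38 stands at 3.76 and 2.56, and the 4 neighbours lie between -0.43 and 0.11.

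Nampt (GeneID 59027, chr12:32870334-32903368, plus strand, 4547 exon bases) encodes the enzyme that joins nicotinamide to phosphoribose and sets the pace of salvage. Its level was 185, 162, 166, 174 and 172 CPM in DMSO and 190, 188, 217, 201 and 194 CPM with DSHN. GW3965 gave 227, 215, 218, 215 and 213 CPM, and the combination 207, 199, 203, 195 and 203 CPM. Every treated library was above every DMSO library. Nampt rose by a log2 of 0.34 with GW3965 (SE 0.04, edgeR adjusted p = 5.03e-08), by 0.21 with DSHN (SE 0.04, adjusted p = 0.000203) and by 0.23 with both (SE 0.04, adjusted p = 1.01e-05).

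The effects of the compounds on Nampt did not add. Its interaction was -0.32 on the log2 scale (SE 0.05, adjusted p = 2.72e-05) and remained called after the length correction (-0.25, adjusted p = 0.000414). The combination was below GW3965 alone in all libraries (log2 -0.11, SE 0.04, adjusted p = 0.0142). This last call was lost after the length correction (-0.03, adjusted p = 0.534), with scaling by total counts (-0.06, adjusted p = 0.18) and without combination replicate 4 or GW3965 replicate 1 (adjusted p up to 0.064). With both compounds against DSHN no difference was called (log2 0.02, 95% interval -0.06 to 0.11, adjusted p = 0.628), and the length correction made it a call (0.11, adjusted p = 0.0159).

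Nmrk1 (GeneID 225994, chr19:18609380-18629555, plus strand, 1726 exon bases) encodes a kinase that brings nicotinamide riboside into the same pathway. Its level was 8.42, 8.52, 8.37, 7.25 and 8.45 CPM in DMSO, and 9.94, 9.63, 10.3, 11.3 and 10.6 CPM with both compounds. The DSHN libraries ran from 6.64 to 10.1 CPM (median 9.21) and the GW3965 libraries from 8.10 to 10.04 CPM (median 8.27). The combination was above DMSO in every library, and the single compounds overlapped DMSO. In the combination Nmrk1 rose by a log2 of 0.33 against DMSO (SE 0.09, edgeR adjusted p = 0.00238). After the length correction this was 0.13 (adjusted p = 0.199).

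Nmnat1 (GeneID 66454, chr4:149552026-149569667, minus strand, 2446 exon bases) encodes the nuclear enzyme that completes NAD from its mononucleotide. It was at 7.16, 7.01, 6.22, 7.15 and 6.87 CPM in DMSO and at 6.68, 5.42, 6.19, 6.10 and 5.59 CPM with DSHN. With GW3965 it was at 5.62, 7.31, 5.36, 6.53 and 6.07 CPM, and with both compounds at 7.32, 6.73, 7.95, 6.53 and 6.51 CPM. DSHN and GW3965 libraries overlapped those of DMSO and of the combination, and no group stood apart. No treatment gave a call against DMSO, with log2 differences of -0.19 for DSHN (95% interval -0.38 to -0.01, adjusted p = 0.105), -0.15 for GW3965 (-0.34 to 0.04, adjusted p = 0.165) and 0.03 for both (-0.16 to 0.22, adjusted p = 0.782). Without GW3965 replicate 2 the GW3965 difference was called (adjusted p = 0.0429). The interaction of 0.37 (SE 0.13, adjusted p = 0.0149) was called and was lost after the length correction (0.28, adjusted p = 0.0699). Nmnat1 shares 26 exon bases with Lzic on the other strand, which had 8284 counts over all libraries against 2602 for Nmnat1, and the counting did not use strand.

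Naprt (GeneID 223646, chr15:75762812-75766330, minus strand, 1891 exon bases) encodes the first enzyme of salvage from nicotinic acid. It was at 5.68, 5.87, 5.58, 5.63 and 4.91 CPM in DMSO and at 6.99, 7.98, 6.71, 6.53 and 7.43 CPM with both compounds, so that these groups did not overlap. The DSHN libraries ran from 5.69 to 6.58 CPM (median 6.10) and the GW3965 libraries from 5.11 to 6.72 CPM (median 6.22), both overlapping DMSO. Naprt rose by a log2 of 0.36 with both compounds against DMSO (SE 0.09, edgeR adjusted p = 0.000614), which was 0.19 after the length correction (adjusted p = 0.0694).

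The differences of Nmrk1, Nmnat1 and Naprt between the combination and the single compounds were small and unstable. Against DSHN the log2 values were 0.23, 0.22 and 0.22 (edgeR adjusted p = 0.0297, 0.0353 and 0.0266), and each group overlapped the other. Against GW3965 they were 0.24, 0.18 and 0.23 (adjusted p = 0.0268, 0.0852 and 0.0212). After the length correction none of these 6 differences was called. Each of the 5 calls was also lost when 1 of certain libraries was left out: for Nmrk1 DSHN replicate 4 or 5, combination replicate 4, or GW3965 replicate 1, 2 or 3. For Naprt these were DSHN replicate 3 or 5, combination replicate 2 and GW3965 replicate 3, and for Nmnat1 DSHN replicate 2 or 5 and combination replicate 1 or 3. The adjusted p without such a library was at most 0.106.

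Nadk (GeneID 192185, chr4:155646838-155675458, plus strand, 3360 exon bases) encodes the cytosolic kinase that turns NAD into NADP. Its level was 228, 227, 227, 228 and 225 CPM in DMSO and 219, 217, 228, 225 and 232 CPM with DSHN. GW3965 gave 180, 183, 186, 173 and 170 CPM and the combination 174, 176, 183, 175 and 168 CPM. The 10 libraries with GW3965 were all below the 10 without it. Nadk fell by 0.35 on the log2 scale with GW3965 against DMSO (SE 0.03, edgeR adjusted p = 7.71e-10), and by 0.35 in the combination against DSHN (SE 0.03, adjusted p = 4.15e-10). No DSHN effect was called, either alone (log2 -0.02, 95% interval -0.08 to 0.05, adjusted p = 0.693) or on top of GW3965 (-0.03, -0.09 to 0.04, adjusted p = 0.506). The length correction left the fall in the combination against DMSO at -0.36 (adjusted p = 3.66e-10), beside -0.37 without it (adjusted p = 7e-11).

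Counted over the 6 genes beside Cd38, DSHN against DMSO gave 1 call where 28.9% of all tested genes were called. GW3965 against DMSO gave 3 (1 higher, 2 lower) beside 46.5% of all genes, and both compounds against DMSO gave 5 (3 higher, 2 lower) beside 64.8%. The combination against GW3965 gave 4, beside the 57.8% above, and the length correction left 0, beside 47.3%. For the interaction 3 of 6 were called beside 50.2% of all genes, and 1, Nampt, after the length correction, beside 44.2%. Comparisons with DMSO share the control libraries, and those with the combination share its libraries.

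**Figure D3:**
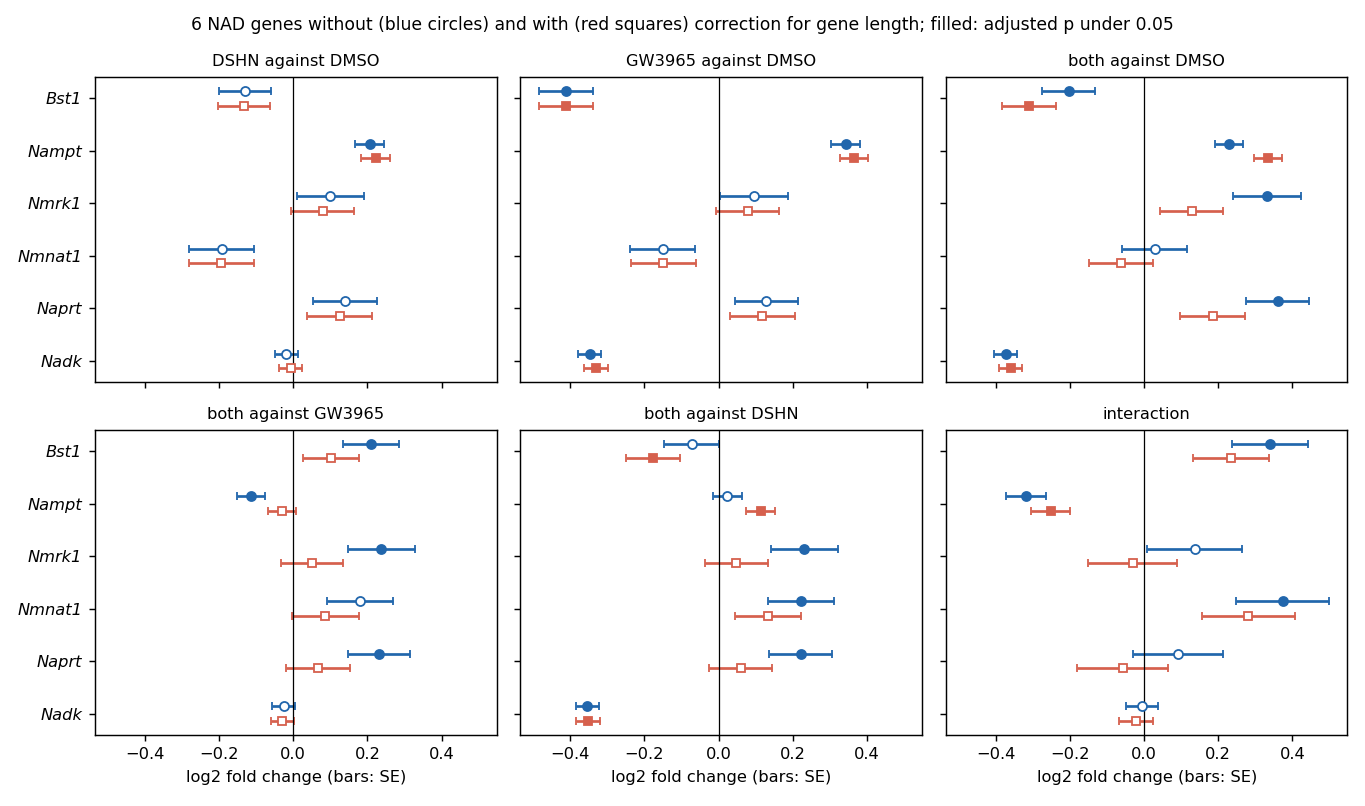
Each panel gives the log2 fold change (bars: SE) of 6 NAD genes in 1 comparison, without (blue circles) and with (red squares) the correction for gene length, filled where the adjusted p was under 0.05. The calls with GW3965 against DMSO are alike in both, while in the combination against GW3965 all 4 filled circles stand beside open squares.

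Levels of different genes were compared as RPKM, which is CPM divided by the exon length in kilobases. In DMSO the order was Nadk (67.5 ± 0.308, SD, n = 5), Nampt (37.7 ± 1.94), Bst1 (8.36 ± 0.457), Nmrk1 (4.75 ± 0.31), Naprt (2.93 ± 0.194), Nmnat1 (2.81 ± 0.158) and Cd38 (1.46 ± 0.226). Naprt and Nmnat1 differed there by less than their spread, and Cd38 was lowest. DSHN left this order as it was, with Cd38 at 1.94 ± 0.166. With GW3965 Cd38 stood at 20 ± 1.35, below Nadk (53.1 ± 1.98) and Nampt (47.9 ± 1.25) and above Bst1 (6.3 ± 0.439). Bst1 overlapped Nmrk1 there, as Naprt overlapped Nmnat1. With both compounds Cd38 kept the same place, at 11.4 ± 1.09, below Nampt at 44.3 ± 0.969 and above Bst1 at 7.28 ± 0.992. Nmrk1, at 5.99 ± 0.372, overlapped Bst1 in that group. The other neighbours in these orders did not overlap.

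**Figure D4:**
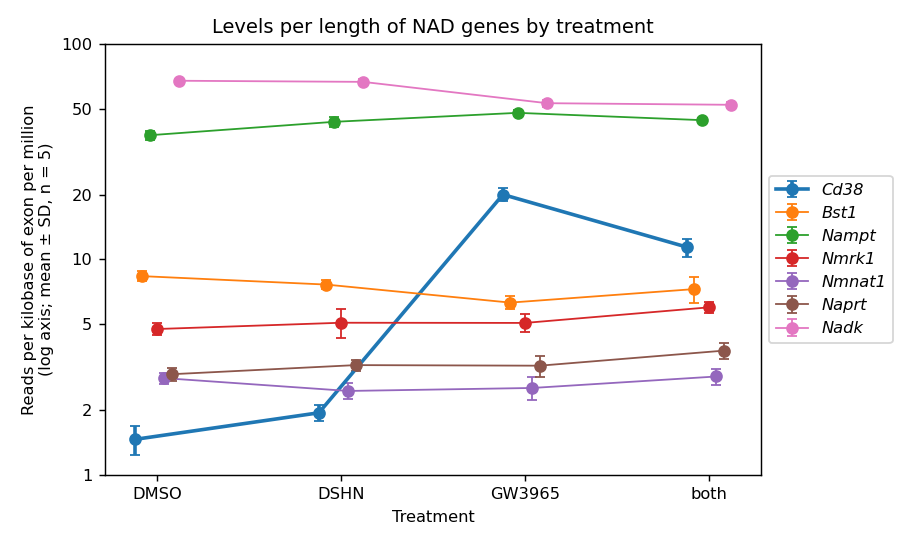
The level of each NAD gene in RPKM (log axis, mean ± SD, n = 5) is plotted under the 4 treatments, with lines only to guide the eye. Cd38 moves from the lowest place, at 1.46, to the place after Nadk and Nampt, at 20 with GW3965 and 11.4 with both compounds.

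The 5 genes whose log2 CPM was most like that of Cd38 were taken, by Pearson's r over the 20 libraries, from the 10001 genes that averaged 5 CPM or more. The libraries form 4 treatment groups, so r reflects the group means as well as the replicates. Abcg1, the cholesterol exporter, had r = 0.9955, with means of 78.8 CPM in DMSO, 96.6 in DSHN, 1287 in GW3965 and 762 in the combination. Il18bp, which encodes the secreted binding protein of interleukin 18, had r = 0.9932 and means of 4.51, 6.62, 45.4 and 26.3 CPM in the same order. The others were the fatty acid desaturases Fads2 (0.9931), Scd2 (0.9926) and Scd1 (0.9918). Scd1 went from 12.9 CPM in DMSO to 268 with GW3965 and 112 with both. All 5 shared the high GW3965 level and the intermediate level of the combination. This follows from picking them by their likeness to Cd38 and is no separate result.

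Of the other NAD genes Nadk ran most strongly against Cd38 over the 20 libraries (r = -0.942), followed by Bst1 (-0.728). Nampt ran with it (0.747), and Naprt (0.445), Nmrk1 (0.382) and Nmnat1 (-0.0409) less so.

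**Figure D5:**
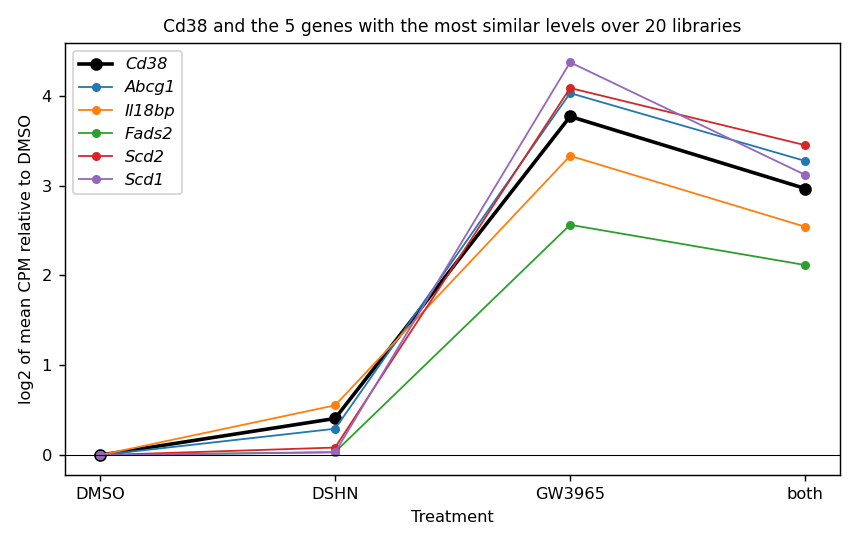
The log2 ratio of the mean CPM to the DMSO mean is plotted for Cd38 (black) and the 5 genes with the highest correlation to it, under the 4 treatments. All 6 lines peak with GW3965 and are lower with both compounds, which follows from choosing the 5 by their likeness to Cd38.

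A wider list held 77 other genes that make, use, move or sense NAD, of which 57 were tested. With DSHN against DMSO 10 were called higher and 10 lower, 35.1% of the list beside 28.9% of all tested genes. With GW3965 15 were higher and 9 lower (42.1% beside 46.5%), and with both compounds 17 were higher and 20 lower (64.9% beside 64.8%). The median log2 change of the list was 0.01, 0.07 and -0.03 in these comparisons, beside 0.00, 0.01 and 0.01 over all genes. The combination gave 10 higher and 16 lower calls against GW3965 (45.6% beside 57.8%), and 12 higher and 15 lower against DSHN (47.4% beside 58.1%). For the interaction 9 were higher and 18 lower (47.4% beside 50.2%).

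Other genes of NADP synthesis and exchange were measured beside Nadk. Nadk2, the mitochondrial NAD kinase, rose by a log2 of 0.31 with GW3965 (edgeR adjusted p = 3.89e-05) where Nadk fell. Nnt, the mitochondrial transhydrogenase that exchanges hydride between NAD and NADP, rose by 0.37 (adjusted p = 5.86e-07). With both compounds Nnt differed from DMSO by -0.02 (adjusted p = 0.735) and from DSHN by -0.23 (adjusted p = 0.000264). The interaction of Nnt was -0.60 (SE 0.07, adjusted p = 1.2e-07). Noct, a phosphatase that turns NADP back to NAD, fell from 13.6 CPM in DMSO to 6.99 with DSHN (log2 -0.95, SE 0.14, adjusted p = 7.14e-06) and by 1.00 on the log2 scale with GW3965 (SE 0.14, adjusted p = 1.22e-06). With both compounds it was at 7.27 CPM, and its interaction was 1.05 (SE 0.20, adjusted p = 0.000122).

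Of other salvage genes, Nmnat3, an NMNAT family enzyme like Nmnat1, rose by a log2 of 0.29 with GW3965 (edgeR adjusted p = 0.00277) and by 0.38 with both compounds (adjusted p = 0.000101). Nmnat2, of the same family and at 1.03 CPM in DMSO, was lower in both comparisons (log2 -0.61 and -0.79, adjusted p = 0.0358 and 0.00667). With both compounds that call was lost after the length correction (adjusted p = 0.0575). Of 4 such genes tested for salvage from nicotinamide and its riboside, GW3965 gave 1 higher and 1 lower call (50% beside 46.5% of all genes). Synthesis from tryptophan was little expressed: 3 of its 9 genes passed the filter, and the mean of Ido1 was 0 CPM in DMSO and in DSHN. Of these 3, Afmid fell by 0.45 on the log2 scale with GW3965 (edgeR adjusted p = 0.00177). Kmo, which encodes kynurenine monooxygenase, rose by a log2 of 1.29 with DSHN (SE 0.31, adjusted p = 0.0024) and by 1.00 with both compounds (adjusted p = 0.00955), from a mean of 0.719 CPM in DMSO. Haao, an enzyme that follows it in the route, fell by 1.07 on the log2 scale with DSHN (SE 0.31, adjusted p = 0.0109), from 0.870 CPM.

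Among the 7 sirtuins, NAD-dependent deacylases, Sirt2 (log2 0.30, edgeR adjusted p = 1.3e-06) and Sirt5 (0.30, adjusted p = 0.0206) rose with GW3965, and none was called lower, so that 28.6% of the sirtuins were called beside 46.5% of all genes. Sirt1, the nuclear deacetylase, differed by -0.05 (adjusted p = 0.28). With both compounds Sirt2, Sirt5 and Sirt7 rose, the last by 0.34 (adjusted p = 2.74e-06), and Sirt1 fell by 0.10 on the log2 scale (adjusted p = 0.0294), 57.1% of the sirtuins beside 64.8% of all genes. After the length correction Sirt7 was at 0.18 (adjusted p = 0.00305) and Sirt1 was no longer called (-0.04, adjusted p = 0.388).

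The ADP-ribosyltransferase family holds enzymes that spend NAD to modify proteins, though not every listed member need do so. Of 16 listed members tested, Zc3hav1 included, GW3965 against DMSO gave 5 higher and 2 lower calls (43.8% beside 46.5% of all genes). The combination against GW3965 gave 0 higher and 11 lower (68.8% beside 57.8%), with a median log2 change of -0.29 beside 0.02 over all genes. These genes are long, with a median of 4924.5 exon bases against 3758 for all tested genes. After the length correction the counts were 1 higher and 10 lower (68.8% beside 47.3% of all genes). The median was then -0.22 beside 0.01 over all genes. Against DMSO the combination gave 0 higher and 9 lower calls (56.2% beside 64.8%). After the correction it gave 4 higher and 7 lower (68.8% beside 58.4%).

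Tnks, a tankyrase that builds ADP-ribose chains, had means of 82.9 CPM in DMSO, 83.6 in DSHN, 89.4 in GW3965 and 42.5 in the combination. Its fall in the combination against GW3965 was 1.07 on the log2 scale (SE 0.08, edgeR adjusted p = 1.73e-11), and its interaction was -1.08 (SE 0.11, adjusted p = 1.17e-08) and -0.91 after the length correction. Parp4 and Parp14 fell in the same comparison, by 0.81 and 0.75 on the log2 scale (adjusted p = 4.09e-11 and 5.58e-09), and by 0.62 and 0.51 after the length correction. Parp8 rose with GW3965 alone, by a log2 of 0.51 (SE 0.06, adjusted p = 1.33e-07), from 27.3 to 39.0 CPM. Parp1, the main DNA damage-activated member, went from 195.5 CPM in DMSO to 171 in DSHN, 173 in GW3965 and 132 in the combination.

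Among genes that remove ADP-ribose, Macrod1, a hydrolase, rose with each treatment, by a log2 of 0.27 with DSHN (SE 0.10, edgeR adjusted p = 0.0453), 0.48 with GW3965 (SE 0.10, adjusted p = 0.000259) and 0.72 with both (SE 0.10, adjusted p = 3.68e-07). Parg, of the same list, was higher with GW3965 (log2 0.12, adjusted p = 0.0457) and lower with both compounds (-0.29, adjusted p = 1.17e-05). After the length correction the latter was -0.12 (adjusted p = 0.0236). Of the 5 genes of this list, both compounds against DMSO gave 3 higher and 1 lower call (80% beside 64.8% of all genes). Gja1, which encodes the connexin 43 channel, a known path for NAD across membranes, fell with each treatment, by 0.31, 0.55 and 0.67 on the log2 scale (adjusted p = 0.000168, 1.64e-08 and 2.1e-10). Slc25a51, of the same transport and breakdown list, rose with each, by 0.14, 0.18 and 0.20 (adjusted p = 0.00159, 3.97e-05 and 7.32e-06). Of 9 genes tested from that list, both compounds against DMSO gave 3 higher and 3 lower calls (66.7% beside 64.8% of all genes). Of the channels that respond to products of CD38, Trpm2 is opened by ADP-ribose and the endolysosomal channels Tpcn1 and Tpcn2 respond to NAADP. Trpm2 rose with GW3965 (log2 0.34, adjusted p = 0.000206) and was lower in the combination than with GW3965 alone by 0.62 on the log2 scale (adjusted p = 4.21e-08). Tpcn2 fell by 0.35 on the log2 scale with DSHN (SE 0.05, adjusted p = 1.4e-05) and by 0.29 with GW3965 (adjusted p = 4.75e-05). In the combination it was higher than with DSHN, by a log2 of 0.18 (adjusted p = 0.00589), or 0.425 after the length correction (adjusted p = 6.16e-07). Against DMSO the combination gave -0.17 (adjusted p = 0.00611), or 0.09 after that correction (adjusted p = 0.169). The interaction of Tpcn2 was 0.47 (adjusted p = 1.09e-05). Jpt2, which encodes a binding protein of NAADP, fell by 0.47 with GW3965 (adjusted p = 4.92e-09). Tpcn1 fell by 0.47 in the combination against DSHN (adjusted p = 7.68e-06). The length correction left Trpm2 at -0.36 and Tpcn1 at -0.36.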

How the data were processed

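Stranded mRNA libraries of 20 macrophage cultures were sequenced, per the labels' protocols. STAR aligned the reads, per the submitters' processing notes, with its version not given in the sources used here. The authors deposited unnormalized counts of reads per gene on GRCm39 from featureCounts 2.0.0, per the file headers. No strand option stands in those headers, so reads of both strands were counted. A RefSeq table gave symbols to 44749 of the 46318 GeneIDs.

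Genes were filtered with filterByExpr, scaled by TMM and fitted by quasi-likelihood in edgeR 4.0.16 (R 4.3.3) with 1 mean per treatment over 20 libraries. Benjamini-Hochberg adjustment ran over 13307 genes. The prior count of log2 CPM was 2, and intervals used 16 degrees of freedom. Alternatives were DESeq2 1.42.0 and its size factors, total counts, no filter, a filter at 1 CPM in 5 libraries with 100 counts, limma 3.58.1 voom, only the groups compared, a replicate block, a spline of 5 degrees of freedom on log2 exon length as an offset, and leaving out each library.

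The members and lists were chosen with earlier results of these data known. A p-value planned for Cd38 in the combination against DSHN is not given, since its choice may have drawn on those libraries too. Further genes were named by rule: per comparison the 4 largest called changes of the wider list at 5 CPM or more, the 5 genes most like Cd38, tested genes within 500 kb of it, and exon overlaps. Other list genes named were chosen after their values were seen. Among these are Nadk2, Nnt, Nmnat2, Nmnat3, Afmid, Kmo, Haao, Parg, Slc25a51, Jpt2, the sirtuins and Parp1. The biological coefficient of variation was 0.0536, and replicates differed by more than counting error in 40 of 40 pairs (chi-square per degree of freedom 2.468 to 13.27). Markers of T and NK cells, neutrophils, dendritic cells and mast cells summed to at most 4.14 CPM. The test across genes was first run on simulated counts.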

Additional observations from a re-analysis of the deposited data

Results flagged for a closer look

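In the combination, Cd38 was at 28.8 CPM in replicate 1 and at 35.1 to 37.3 CPM in the other 4 libraries, a gap of 0.735 of the range where 0.71 is the limit for 5 values. Without that library the combination against GW3965 gave a log2 difference of -0.73 (SE 0.06) and the combination against DSHN gave 2.63. Nmrk1 was at 7.25 CPM in DMSO replicate 4 and at 8.37 to 8.52 CPM in the other 4, a gap of 0.884 of the range. Without it the rise of Nmrk1 with both compounds was 0.29 (edgeR adjusted p = 0.00888). Of 28 groups of values examined these 2 passed that limit, which chance alone passes in about 1 of 20 groups.

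The effect of DSHN was called different with and without GW3965 for 3 of the 6 genes beside Cd38, and for 50.2% of all tested genes. The differences on the log2 scale were 0.34 for Bst1, -0.32 for Nampt and 0.37 for Nmnat1, by an interaction term in edgeR (adjusted p = 0.00785, 2.72e-05 and 0.0149). After the length correction Bst1 (0.23, adjusted p = 0.0664) and Nmnat1 (0.28, adjusted p = 0.0699) were no longer called, and with no filter on low counts Nmnat1 was not called either (0.36, adjusted p = 0.052).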

How the results depend on the processing

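The log2 difference of Cd38 between the combination and DSHN was 2.53 to 2.58 under the other settings and 2.51 to 2.63 when 1 library was left out. DESeq2 size factors, limma voom, fits of only the groups compared and the replicate block changed no call of the 6 genes beside Cd38. Of 41 values by gene and comparison, the length correction reversed 3, ended 11 calls and added 2. It left 3 of 6 genes called for both compounds against DMSO (58.4% of all genes), 0 against GW3965 (47.3%) and 1 for the interaction (44.2%). In the combination against DSHN it left Nadk called and added the calls of Bst1 and Nampt, beside 46.4% of all genes. The reversed values were -0.062 for Nmnat1 with both compounds against DMSO, and -0.031 for Nmrk1 and -0.058 for Naprt in the interaction. None of these was called in any fit. With total counts Nadk gave 0.031 in the combination against GW3965 and 0.069 in the interaction, and with the stricter filter 0.005 there. With no filter and with DESeq2, Nmnat1 and Naprt lost their calls in the combination against DSHN. Their adjusted p was 0.119 and 0.12 with no filter (edgeR), and 0.056 and 0.0519 with DESeq2.

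Leaving out 1 library gave 2 to 4 calls of the 6 genes beside Cd38 in the combination against GW3965. With all libraries 57.8% of all tested genes were called there. Against DSHN, Nmrk1, Nmnat1 and Naprt each lost their call without certain libraries, as given above. Nmnat1 ranged from -0.018 to 0.056 in the combination against DMSO, and Nadk from -0.01 to 0.021 in the interaction. Same-numbered replicates correlated at -0.205 to 0.247 over 30 pairs of libraries, above 0.1 in 10. Their mean r was 0.0202, beside -0.00504 for other pairs. For 13 of 20 libraries the mean r was highest with their own number out of 5, more than a random choice among 5 numbers would give. Same-numbered libraries may thus share a source, which the labels do not state. The main fit did not pair them, and the replicate block was run as an alternative. With the replicate block Cd38 gave 2.56 (SE 0.08) in the combination against DSHN, and the genes called went from 3852 to 3988 for DSHN against DMSO and from 6681 to 6771 for the interaction. With total counts the share of called genes that were higher went from 50.6% to 36.2% for GW3965 against DMSO and from 47.2% to 58.8% for the interaction. Levels of Nmnat1, Naprt and Cd38 in DMSO rest on about 100 reads per library, which limits their precision. The causes of these changes were not tested.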
